A study of Homo sapiens with 9 samples.

Results

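The regulators that encode, hold back, partner or oppose the transcription factor NRF2, 9 genes in all, were followed in the RNA of HaCaT keratinocytes. They are NFE2L2 (which encodes NRF2), NFE2L1 (NRF1), KEAP1, CUL3, BACH1, MAFF, MAFG, MAFK and SQSTM1 (p62). They were selected by gene name with earlier results of these data known, and all 9 of the 9 were found among the 61311 genes listed in the count table. All 9 also passed the filter on low counts, among 15154 genes tested. HaCaT is an immortalized line of human keratinocytes, the main cells of the epidermis.

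NRF2 is the principal activator of antioxidant and detoxification genes in keratinocytes. In unstressed cells KEAP1, an adaptor of the CUL3 ubiquitin ligase, binds NRF2 and directs it to the proteasome. Electrophiles and oxidants modify cysteines of KEAP1, and NRF2 then accumulates, enters the nucleus and binds antioxidant response elements as a dimer with one of the small MAF proteins MAFF, MAFG and MAFK. BACH1 uses the same small MAF partners to repress an overlapping set of genes until heme releases it. SQSTM1 is an autophagy receptor that captures KEAP1 and is itself an NRF2 target, and NFE2L1 is a relative of NRF2 that drives proteasome genes when proteasome activity is low. Because much of this control acts on protein, transcript levels do not measure NRF2 activity.

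The study compared 3 groups of HaCaT cells, all labelled wild type and grown in DMEM with serum, with 3 libraries each. The CT group was irradiated with UVA at 5 J/cm2 and treated with an extract of Coreopsis tinctoria, a plant used as a herbal tea. The UVA group was irradiated at 5 J/cm2 without the extract, and the NC group was the control with no treatment. The comparison of CT with UVA addresses the extract in irradiated cells, that of UVA with NC addresses irradiation, and that of CT with NC addresses both together. No library of unirradiated cells given the extract was analysed here. All libraries come from the same cell line, and nothing in the labels says whether they were separate cultures, so p-values measure the spread between these libraries, which may be technical.

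Library totals were 20129928 to 21971215 counts in CT, 16390289 to 19527286 in UVA and 17053246 to 19324311 in NC. The keratinocyte markers KRT5, KRT14 and TP63 were present throughout, with 1348 to 2411, 647 to 972 and 232 to 297 CPM over the 9 libraries (CPM is the count of a gene per 1000000 counts of its library, after TMM scaling). The 10 keratinocyte markers summed to 5320 to 5600 CPM in CT, 5104 to 5617 CPM in UVA and 6270 to 7273 CPM in NC. Of the 10, 8 fell in UVA against NC and 6 fell in CT against NC. Among all genes, 10.6% were called lower in UVA against NC and 14.2% in CT against NC. Of the other cell types that were checked, the 7 fibroblast markers summed to 22 to 24 counts in CT, 18 to 24 in UVA and 39 to 59 in NC. The 7 macrophage and leukocyte markers summed to 14 to 29 counts in CT, 7 to 30 in UVA and 7 to 26 in NC, and the 6 melanocyte markers to 93 to 138 counts in CT, 82 to 111 in UVA and 101 to 111 in NC. PDGFRA, AIF1 and TYR were at 0 in every library. The part of this shift in marker levels in the results below was not tested. In bulk RNA, fewer cells of a type and less RNA per cell cannot be told apart.

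The 9 genes lie on 7 chromosomes (GENCODE 29, GRCh38). NFE2L2 spans chr2:177227595-177392697 on the minus strand and CUL3 spans chr2:224470150-224585397, also on the minus strand. NFE2L1 is at chr17:48048329-48061487 on the plus strand and MAFG at chr17:81918270-81927714 on the minus strand. KEAP1 is at chr19:10486120-10503741 (minus), BACH1 at chr21:29194071-29630751 (plus), MAFF at chr22:38200767-38216511 (plus), MAFK at chr7:1530714-1543043 (plus) and SQSTM1 at chr5:179806398-179838078 (plus). No stretch of 50 bases was shared between the transcripts of any pair of the 9 genes, the 3 small MAF genes included. Exons of other genes covered 22.04% of the exon bases of SQSTM1, 20.9% of those of NFE2L2 and 18.1% of those of MAFK, at most 6.30% of those of NFE2L1, CUL3, BACH1 and MAFG, and none of those of KEAP1 or MAFF. The strand of counting is not given in the sources used here, so reads from opposite strands of such overlaps cannot be told apart. AC019080.1 shares 17.6% of the exon bases of NFE2L2 on the same strand, where the strand of a read would not separate the genes.

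NRF2, BACH1 and the small MAF proteins bind DNA. The promoters of the 9 genes were therefore searched for the cores of the antioxidant response element and the AP-1 and MAF element. The cyclic AMP response element was searched for as well, and is not taken here as an element of these proteins. The matches are shown because they sit in the genes whose levels are described next. RefSeq promoter windows (GRCh38.p14, 250 bases before to 50 bases after each annotated start) were at hand for 8 of the 9 genes, with 17 windows in all. The core of the antioxidant response element, TGACNNNGC on either strand, was in 2 of the 17 windows, those of KEAP1 and MAFF, against 13.3% of all 35116 windows. The AP-1 and MAF element core TGAGTCA was in 1 window, that of BACH1, against 4.95% of all windows. The cyclic AMP response element TGACGTCA, which reads the same on both strands, was in 1 window, that of MAFF, against 1.85%. The stretches below run 5′ to 3′ on the strand of the gene, and capitals mark the match. The KEAP1 stretches are at chr19:10502807-10502836 and chr19:10502784-10502813, with matches at positions -54 to -46 and, reading on the opposite strand, -31 to -23 from the start. The BACH1 stretch is at chr21:29298862-29298891 (match -48 to -42). The MAFF stretches are at chr22:38201861-38201890 (match -122 to -114, opposite strand) and chr22:38201929-38201958 (match -54 to -47).
KEAP1 first TGACNNNGC match: gacttttattgTGACACGGCgggcgcccgg
KEAP1 second TGACNNNGC match: cgcccggctctGCTTAGTCAtggtgacctg
BACH1 TGAGTCA match: gcgcggaaggagTGAGTCAcctgaccgctg
MAFF TGACNNNGC match: gcttccaggggGCGGGGTCAtacgggggcg
MAFF TGACGTCA match: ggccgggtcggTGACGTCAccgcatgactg
The second KEAP1 match, GCTTAGTCA, is the TGACNNNGC core written on the opposite strand, as is GCGGGGTCA in MAFF. A match of letters is not a binding site, and binding was not measured.

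With counts divided by exon length, the 9 genes kept nearly the same order of level in every group. In CT cells, SQSTM1 was the most abundant at 72.3 CPM per kb (67.2 to 79.0 over the 3 libraries), ahead of NFE2L1 at 46.3 and NFE2L2 at 41.9 CPM per kb. KEAP1 at 13.6, CUL3 at 10.9 and MAFG at 10.8 CPM per kb were lower, and BACH1 at 6.65, MAFK at 6.44 and MAFF at 4.26 CPM per kb were lowest. Of these neighbours, CUL3 and MAFG overlapped between libraries, as did BACH1 and MAFK. UVA cells had the same order, with 69.9 CPM per kb for SQSTM1 and 3.89 for MAFF, and there BACH1 (6.11 to 6.75) and MAFK (5.42 to 6.10) were only just apart. In NC cells NFE2L1, at 56.9 CPM per kb (51.9 to 61.2), overlapped with SQSTM1, at 52.0 CPM per kb (50.5 to 53.1), so the first place was not settled. MAFF was lowest in NC at 1.56 CPM per kb.

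NFE2L2, the gene of NRF2 itself, passed the test in no comparison. It had 256, 236 and 259 CPM in CT libraries, 262, 260 and 265 CPM in UVA libraries, and 249.6, 248 and 252 CPM in NC libraries. The 3 UVA libraries were above all CT and all NC libraries, while CT and NC overlapped. The log2 difference was -0.06 (SE 0.04) in CT against UVA, with an adjusted p of 0.535 in edgeR's quasi-likelihood test. It was 0.07 (SE 0.04, adjusted p 0.259) in UVA against NC, and 0.00 (SE 0.04, adjusted p 0.958) in CT against NC. The interval of ±2 SE ran from -0.15 to 0.02 in CT against UVA, from -0.01 to 0.15 in UVA against NC and from -0.08 to 0.09 in CT against NC, on the log2 scale.

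Across the 9 genes, 0 passed the threshold (adjusted p under 0.05) in CT against UVA, where 1.56% of all 15154 genes did. DESeq2 and limma-voom also called 0 of the 9. In edgeR 2 of the 9 had an unadjusted p under 0.05, KEAP1 and MAFG. The share of all genes under that unadjusted level was not counted, so no excess is read from it. Of all genes, 143 were called higher and 93 lower in CT against UVA, and 117 and 116 where libraries were scaled by their totals only. In UVA against NC, 5 of the 9 rose and 2 fell, and 21.1% of all genes passed, 10.5% higher and 10.6% lower. In CT against NC, 5 rose and 1 fell, and 29.8% of all genes passed, 15.7% higher and 14.2% lower. Between UVA and NC the libraries of 8 of the 9 did not overlap, as was so for 38% of all genes, and between CT and NC those of 7 of the 9 did not, as was so for 43% of all genes. The UVA and CT groups were each set against the same NC libraries, so these counts are not independent of each other. The median log2 fold change of the 9 genes was 0.07 in CT against UVA, 0.25 in UVA against NC and 0.32 in CT against NC, and that of all tested genes was 0.00 in each.

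**Figure D1:**
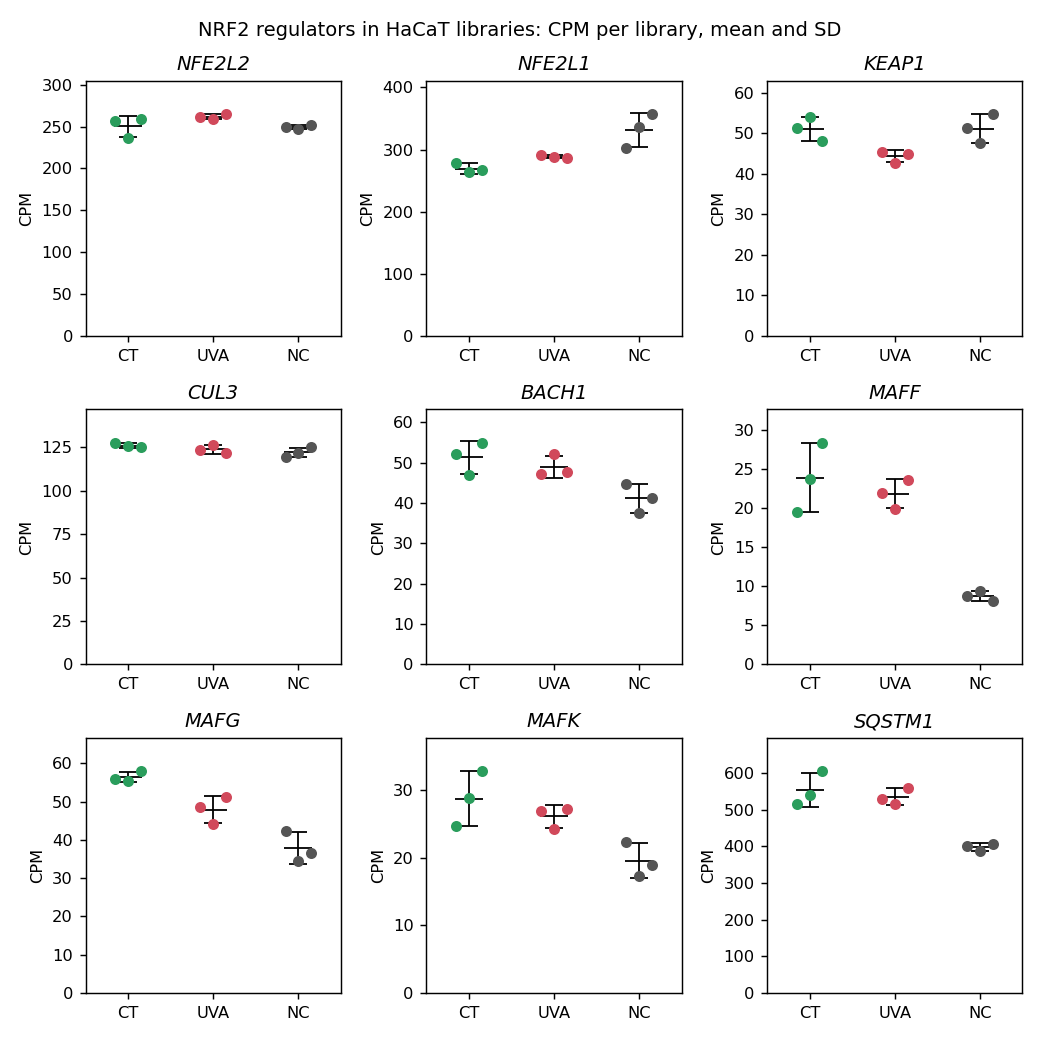
CPM (TMM scaling) of the 9 genes, 1 panel per gene, in the CT, UVA and NC groups; points are the 3 libraries of a group and bars are the mean ± SD. The MAFF, MAFG, MAFK, BACH1 and SQSTM1 points of CT and UVA lie above those of NC, those of NFE2L1 lie below, and those of KEAP1 are lowest in UVA.

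KEAP1, the adaptor that hands NRF2 to the ubiquitin ligase, had its lowest level in UVA cells. It had 51.2, 53.9 and 48.1 CPM in CT libraries, 45.4, 42.7 and 44.9 CPM in UVA libraries, and 51.2, 47.5 and 54.6 CPM in NC libraries. Every UVA library was below every CT and NC library. KEAP1 fell in UVA against NC by 0.20 on the log2 scale (SE 0.07, adjusted p 0.0305). This call was lost on leaving out any of 5 libraries, with adjusted p 0.0518 without UVA replicate 1, 0.121 without UVA replicate 2, 0.0718 without UVA replicate 3, 0.0576 without NC replicate 1 and 0.157 without NC replicate 3. In CT against UVA the log2 difference was 0.20 (SE 0.06), with an interval from 0.07 to 0.33 and an adjusted p of 0.142, so it did not pass. Libraries of CT and UVA did not overlap for 4 of the 9 genes, KEAP1 and MAFG (CT higher) and NFE2L2 and NFE2L1 (CT lower), against 18.8% of all genes, 9.77% with CT higher and 9.01% with CT lower. The difference between CT and NC was -0.00 (interval -0.13 to 0.13, adjusted p 0.988).

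CUL3, the scaffold of the ligase, passed the test in no comparison. It had 128, 125 and 125 CPM in CT, 123, 126 and 121 CPM in UVA, and 119, 122 and 125 CPM in NC. Its log2 difference was 0.03 in CT against UVA (adjusted p 0.836), 0.02 in UVA against NC (adjusted p 0.793) and 0.05 in CT against NC (adjusted p 0.443). The 3 intervals of ±2 SE together lay between -0.06 and 0.13. Every CT library was above every NC library by a small margin, as was so for 21.8% of all genes.

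The small MAF genes encode short basic leucine zipper proteins without an activation domain of their own, which serve both NRF2 and BACH1. All 3 rose in UVA against NC and in CT against NC, by unequal amounts. MAFF had 19.6, 23.8 and 28.4 CPM in CT libraries and 21.9, 19.9 and 23.6 CPM in UVA libraries, against 8.80, 9.36 and 8.17 CPM in NC libraries. The lowest irradiated library was thus above the highest NC library by more than the whole range of NC. The fold was 2.72 in CT against NC, a log2 fold change of 1.44 (SE 0.12, adjusted p 2.93e-07), and 2.49 in UVA against NC. Between CT and UVA, MAFF differed by 0.13 (interval -0.10 to 0.35, adjusted p 0.672), and the libraries overlapped. CT replicate 3 was the highest library, and without it the difference of MAFF between CT and UVA was -0.0149 on the log2 scale.

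MAFG was the most abundant of the 3 by exon length and by counts. It had 55.9, 55.3 and 57.9 CPM in CT libraries, 48.4, 44.0 and 51.1 CPM in UVA libraries, and 42.4, 34.3 and 36.5 CPM in NC libraries. The 3 groups formed steps with no overlap, CT above UVA and UVA above NC. MAFG rose by 0.34 on the log2 scale in UVA against NC (SE 0.07, adjusted p 0.00267) and by 0.58 in CT against NC (SE 0.07, adjusted p 1.04e-05). In CT against UVA its log2 difference was 0.24 (interval 0.09 to 0.38, adjusted p 0.118). That difference passed in 1 of the 17 alternatives, with no filter on low counts (adjusted p 0.0187).

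MAFK had 24.6, 28.8 and 32.8 CPM in CT libraries, 26.9, 24.2 and 27.2 CPM in UVA libraries, and 22.3, 17.3 and 18.9 CPM in NC libraries. All irradiated libraries were above all NC libraries, and CT and UVA overlapped. MAFK rose by 0.42 in UVA against NC (SE 0.11, adjusted p 0.0113) and by 0.56 in CT against NC (SE 0.11, adjusted p 0.000864). The call in UVA against NC was lost without UVA replicate 3 (adjusted p 0.0599) and without NC replicate 2 (adjusted p 0.0605). TMEM184A, which overlaps MAFK on the opposite strand, had 19.6 ± 1.24 CPM in CT, 19.6 ± 2.58 CPM in UVA and 20.1 ± 0.480 CPM in NC (SD, n = 3 each) and passed in no comparison.

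**Figure D2:**
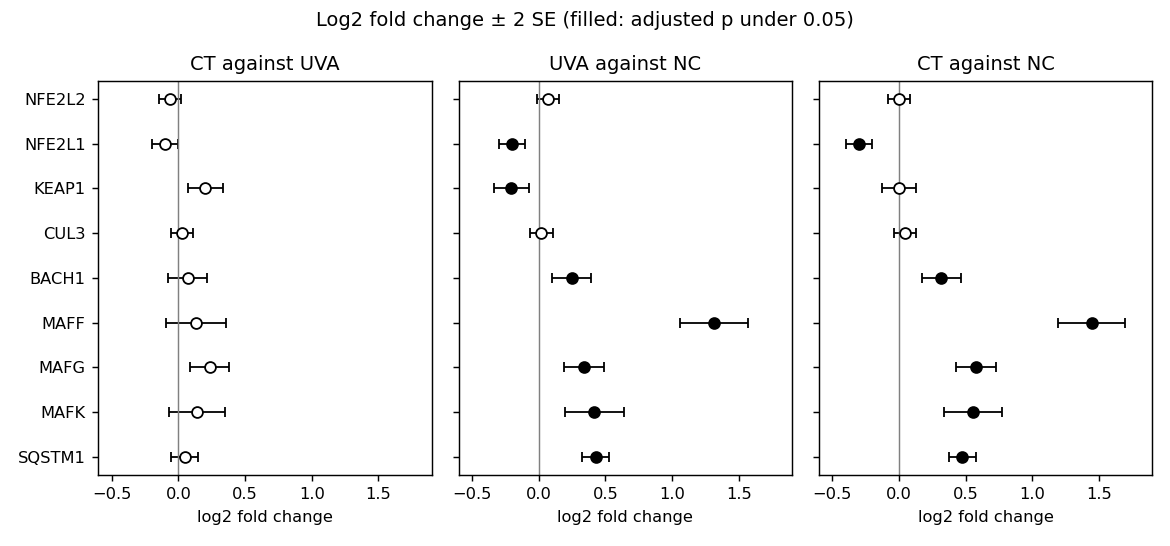
Log2 fold change (x axis) of each of the 9 genes (rows) in CT against UVA, UVA against NC and CT against NC, with bars of ±2 SE; filled points have an adjusted p under 0.05 in edgeR's quasi-likelihood test. No point is filled in CT against UVA, and MAFF lies farthest from 0 among the 9 in the other panels, at 1.31 and 1.44.

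BACH1, the repressor that competes with NRF2 for small MAF partners, moved the same way as those partners. BACH1 had 52.2, 46.8 and 54.9 CPM in CT libraries and 47.1, 52.1 and 47.6 CPM in UVA libraries, against 44.7, 37.6 and 41.2 CPM in NC libraries. All irradiated libraries were above all NC libraries, and CT and UVA overlapped. BACH1 rose by 0.25 on the log2 scale in UVA against NC (SE 0.07, adjusted p 0.0207) and by 0.32 in CT against NC (SE 0.07, adjusted p 0.00244). The call in UVA against NC was lost without UVA replicate 2 (adjusted p 0.111), without NC replicate 2 (adjusted p 0.130) and without NC replicate 3 (adjusted p 0.0531). Between CT and UVA the difference was 0.07 (interval -0.07 to 0.22, adjusted p 0.732), with 0.02 without CT replicate 3 and 0.13 without CT replicate 2.

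SQSTM1, the autophagy receptor that binds KEAP1, was the most abundant of the 9 in irradiated cells. It had 515, 540 and 604 CPM in CT libraries and 529, 516 and 560 CPM in UVA libraries, against 401, 386 and 407 CPM in NC libraries. The irradiated libraries were all above the NC libraries, and CT and UVA overlapped. SQSTM1 rose by 0.43 in UVA against NC (SE 0.05, adjusted p 2.51e-05) and by 0.47 in CT against NC (SE 0.05, adjusted p 4.27e-06). The difference between CT and UVA was 0.05 (interval -0.05 to 0.15, adjusted p 0.741), and -0.0217 without CT replicate 3. MRNIP shares 20.7% of the exon bases of SQSTM1 on the opposite strand. MRNIP had 73.0 ± 8.84 CPM in CT, 59.7 ± 4.39 CPM in UVA and 51.7 ± 2.21 CPM in NC (SD, n = 3 each), and rose in CT against NC by 0.50 (adjusted p 0.000188). The part of MRNIP reads in the SQSTM1 counts was not tested.

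NFE2L1, the proteasome regulator, was the only one of the 9 that fell in both comparisons with NC. It had 279, 263 and 266 CPM in CT libraries, 291, 288 and 287 CPM in UVA libraries, and 302, 336 and 357 CPM in NC libraries. The groups did not overlap, with CT lowest and NC highest, and the NC libraries were the most spread. NFE2L1 fell by 0.20 on the log2 scale in UVA against NC (SE 0.05, adjusted p 0.00605) and by 0.30 in CT against NC (SE 0.05, adjusted p 0.000131). The log2 difference in UVA against NC was -0.26 without NC replicate 1 and -0.14 without NC replicate 3. Its call held under all 17 alternatives, with the largest adjusted p, 0.0458, without NC replicate 3. In CT against UVA its log2 difference was -0.10 (SE 0.05, adjusted p 0.390).

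Ratios of counts within a library, which do not depend on its depth, compare the transcripts of the regulators and not the amounts of their proteins. With 3 libraries against 3 an exact permutation test cannot go below p = 0.1, so the ratios are given as values. KEAP1 had 0.205 ± 0.0219 counts per NFE2L2 count in CT, 0.169 ± 0.00438 in UVA and 0.205 ± 0.0123 in NC (SD, n = 3 each), with UVA below all libraries of both other groups. BACH1 had 0.205 ± 0.00675 counts per NFE2L2 count in CT, 0.187 ± 0.0120 in UVA and 0.165 ± 0.0137 in NC, with CT and UVA overlapping and both above NC. The repressor thus had more transcript beside the activator in irradiated libraries.

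The summed small MAF counts per NFE2L2 count were 0.391, 0.458 and 0.459 in CT, 0.372, 0.339 and 0.385 in UVA, and 0.295, 0.246 and 0.252 in NC. No groups overlapped in this ratio, with CT highest. The small MAF sum on its own, 100.1 to 119 CPM in CT, 88.1 to 102 CPM in UVA and 61.0 to 73.5 CPM in NC, overlapped between CT and UVA, and NFE2L2 was lower in every CT library than in every UVA library. Per BACH1 count the small MAF sum was 2.13 ± 0.197 in CT, 1.97 ± 0.241 in UVA and 1.60 ± 0.0524 in NC, and CT and UVA overlapped. The makeup of the small MAF pool differed as well. MAFF made up 21.8% ± 2.16 of the small MAF counts in CT, 22.8% ± 0.342 in UVA and 13.4% ± 1.75 in NC. MAFG made up 51.9% ± 3.66 in CT, 49.97% ± 0.175 in UVA and 57.1% ± 0.733 in NC, so it was the largest of the 3 in every group. NFE2L2 had 0.929 ± 0.0394 counts per NFE2L1 count in CT, 0.908 ± 0.0134 in UVA and 0.757 ± 0.0616 in NC, with irradiated libraries all above NC.

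**Figure D3:**
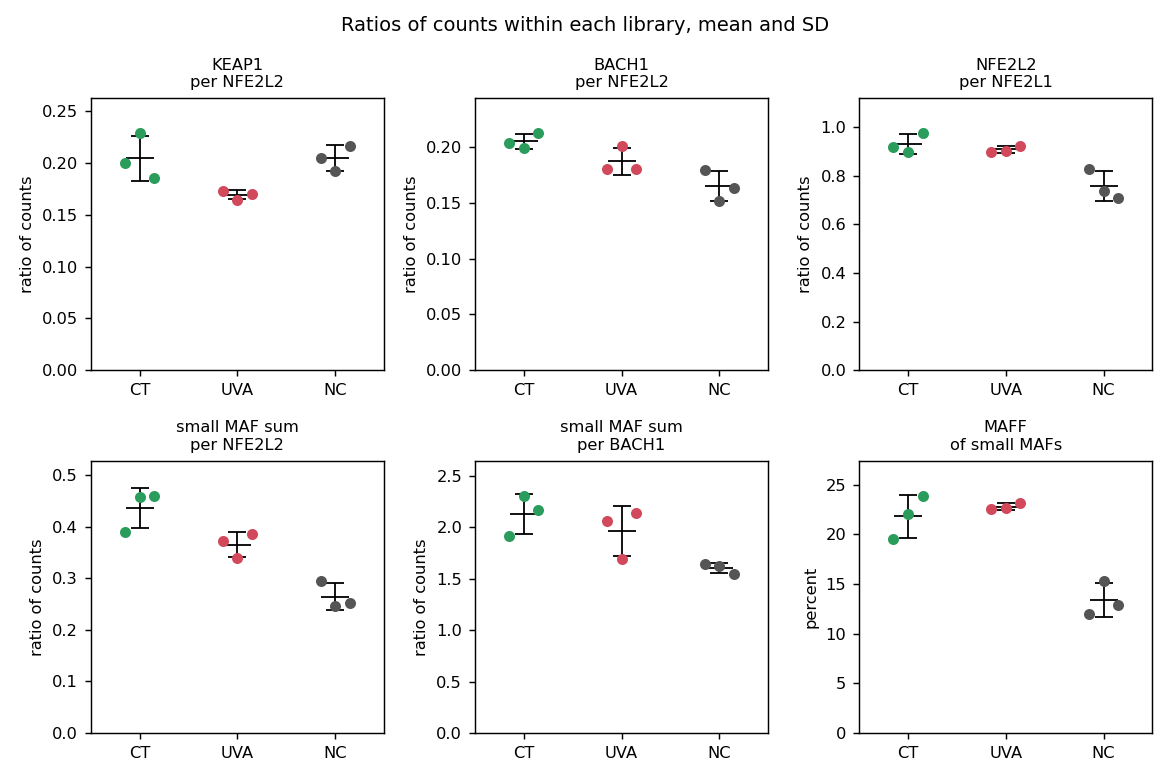
Ratios of counts between the regulators within each library (y axis, ratio of counts, or percent for the share of MAFF among the 3 small MAF genes) in the CT, UVA and NC groups; points are libraries and bars the mean ± SD. The small MAF sum per NFE2L2 count stands in 3 separate steps, with CT at 0.436, UVA at 0.365 and NC at 0.264, while the small MAF CPM overlapped between CT and UVA.

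Other factors of the same family were mostly scarce. NFE2L3 (NRF3), a further cap'n'collar factor, had 32.6 ± 3.60 CPM in CT, 31.2 ± 1.16 CPM in UVA and 19.6 ± 3.24 CPM in NC (SD, n = 3 each). It rose in UVA against NC by 0.66 (adjusted p 0.000318) and in CT against NC by 0.73 (adjusted p 6.71e-05), and differed by 0.06 between CT and UVA (adjusted p 0.831). BACH2 had 14, 11 and 11 counts in CT, 2, 5 and 18 in UVA, and 3, 2 and 0 in NC, and passed in CT against NC (adjusted p 0.0157). The blood cell factor NFE2 had at most 1 count in any library and was not tested.

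The genes around the 9 regulators were read by lists written with earlier results of these data known. Among 12 genes whose proteins bind KEAP1, 5 rose and 0 fell in UVA against NC, 6 rose and 0 fell in CT against NC, and 1 rose and 1 fell in CT against UVA. Of all genes, 10.5% were called higher in UVA against NC, 15.7% in CT against NC and 0.944% in CT against UVA. SESN2, a stress protein that promotes autophagic loss of KEAP1, had 11.4 ± 0.614 CPM in CT, 18.4 ± 1.02 CPM in UVA and 12.4 ± 0.798 CPM in NC. SESN2 rose in UVA against NC by 0.56 (adjusted p 0.000396) and fell in CT against UVA by 0.68 (adjusted p 0.000342). TRIM16, a ubiquitin ligase that binds KEAP1 and NRF2, was 192 ± 6.94 CPM in CT, 171 ± 2.65 CPM in UVA and 149.7 ± 2.32 CPM in NC. TRIM16 rose in CT against UVA by 0.17 (adjusted p 0.0362) and in UVA against NC by 0.19 (adjusted p 0.00254).

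Among 12 genes of other routes of NRF2 turnover, 0 passed in CT against UVA in edgeR, where 1.56% of all genes did. USP11, a deubiquitinase, had the smallest adjusted p there (0.142). At an unadjusted p under 0.05 there were 5 of the 12, and the share of all genes at that level was not counted. In UVA against NC, 0 rose and 1 fell, CAND1, an exchange factor of cullin ligases (-0.14, adjusted p 0.01002). In CT against NC, 2 rose and 3 fell, and SKP1, a subunit of the SCF ligases, led with 0.26 (adjusted p 0.000481). Of all genes, 10.5% were called higher and 10.6% lower in UVA against NC, and 15.7% higher and 14.2% lower in CT against NC. With 12 genes, no excess is read from these counts. In a list of 11 cofactors and kinases of NRF2, the repressor RXRA stands beside coactivators. Of these 11, 0 passed in CT against UVA in edgeR, also at an unadjusted p under 0.05. In this list 4 fell and 0 rose in UVA against NC, where 10.6% of all genes were called lower and 10.5% higher. In CT against NC 5 of the 11 fell and 2 rose, where 14.2% of all genes were called lower and 15.7% higher. RXRA, a nuclear receptor that binds NRF2 and lowers its activity, had 239.8 ± 20.9 CPM in CT, 219 ± 14.0 CPM in UVA and 298 ± 21.1 CPM in NC, and fell in UVA against NC by 0.45 (adjusted p 0.000987). EIF2AK3, the PERK kinase of the endoplasmic reticulum, had 28.6 ± 2.15 CPM in CT, 31.8 ± 1.10 CPM in UVA and 38.7 ± 4.32 CPM in NC. EIF2AK3 fell in UVA against NC by 0.28 (adjusted p 0.0161) and in CT against NC by 0.43 (adjusted p 0.000399), and its difference of -0.15 in CT against UVA did not pass (adjusted p 0.438).

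Many targets passed between CT and UVA, where 0 of the 9 regulators did. Of 41 NRF2 targets tested, 21 were higher in CT than in UVA and 0 lower, with a median log2 fold change of 0.30, against 0.944% of all genes called higher. GCLC, the catalytic subunit of the enzyme that starts glutathione synthesis, had 234 ± 13.3 CPM in CT, 129 ± 3.06 CPM in UVA and 108 ± 2.72 CPM in NC, and rose in CT against UVA by 0.86 (adjusted p 3.47e-10). NQO1, a quinone reductase, had 323 ± 10.6 CPM in CT, 240.7 ± 1.99 CPM in UVA and 245 ± 5.62 CPM in NC, and rose in CT against UVA by 0.42. In UVA against NC, 12 targets rose and 9 fell, with a median of -0.03. Of all genes, 10.5% were called higher and 10.6% lower there. TXNRD1, thioredoxin reductase, had 614 ± 46.8 CPM in CT, 392 ± 15.3 CPM in UVA and 275 ± 8.98 CPM in NC, and SLC7A11, the cystine transporter, had 433 ± 12.7 CPM in CT, 356 ± 10.8 CPM in UVA and 185 ± 23.2 CPM in NC. SLC7A11 rose in UVA against NC by 0.94. In CT against NC, 27 targets rose and 2 fell, against 15.7% of all genes called higher and 14.2% called lower. No target called lower in UVA against NC or in CT against NC is given values in this paragraph.

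Of 8 genes that BACH1 represses, 7 are also among the NRF2 targets just counted, and ALAS1, the first enzyme of heme synthesis, is the other. Of these 8, 4 rose and 0 fell in CT against UVA (NQO1, GCLM, FTL and ALAS1), 2 rose and 0 fell in UVA against NC, and 5 rose and 0 fell in CT against NC. The shares of all genes called higher were 0.944%, 10.5% and 15.7%. FTL, the ferritin light chain, had 359 ± 10.7 CPM in CT, 294 ± 9.58 CPM in UVA and 246 ± 2.60 CPM in NC. FTL rose in CT against UVA by 0.29 (adjusted p 0.000202) and in UVA against NC by 0.26 (adjusted p 0.000145). HMOX1, the heme oxygenase gene that BACH1 is best known to repress, had few counts, with 7, 31 and 23 counts in CT, 13, 5 and 10 in UVA, and 27, 12 and 10 in NC, and did not pass in any comparison.

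Of 32 proteasome genes, which NFE2L1 drives under proteasome stress, 2 rose and 0 fell in CT against UVA, 5 rose and 2 fell in UVA against NC, and 24 rose and 0 fell in CT against NC. Of all genes, 0.944% were called higher in CT against UVA. In UVA against NC 10.5% of all genes were called higher and 10.6% lower, near the counts of the list there. In CT against NC 15.7% of all genes were called higher. The median in CT against NC was 0.16, while NFE2L1 itself fell in that comparison. POMP, the chaperone of proteasome assembly, had 167 ± 12.5 CPM in CT, 145 ± 7.53 CPM in UVA and 124 ± 1.19 CPM in NC, and rose in CT against UVA by 0.21 (adjusted p 0.0404). Among 12 genes that process the NFE2L1 protein, OGT, the enzyme that adds O-linked N-acetylglucosamine, had 655 ± 33.1 CPM in CT, 747 ± 33.2 CPM in UVA and 602 ± 16.9 CPM in NC. OGT fell in CT against UVA by 0.19 (adjusted p 0.0254) and rose in UVA against NC by 0.31 (adjusted p 5.07e-05). It was the only gene of that list to pass in either of these comparisons, where 0.614% of all genes were called lower and 10.5% higher, respectively. In CT against NC, 3 of the 12 rose, OGT among them, and 1 fell. Of all genes, 15.7% were called higher and 14.2% lower in CT against NC.

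Of 19 genes of selective autophagy around SQSTM1, KEAP1 among them, 0 passed in CT against UVA in edgeR. At an unadjusted p under 0.05 there were 6, and the share of all genes at that level was not counted. In UVA against NC 1 rose and 3 fell, and in CT against NC 1 rose and 3 fell. GABARAP, which tethers cargo receptors to autophagosomes, had 82.0 ± 4.71 CPM in CT, 84.8 ± 3.35 CPM in UVA and 100.3 ± 4.09 CPM in NC, and fell in UVA against NC by 0.24 (adjusted p 0.00270). WDFY3, a scaffold that works with SQSTM1, had 78.7 ± 1.93 CPM in CT, 85.5 ± 2.56 CPM in UVA and 95.0 ± 0.549 CPM in NC, and fell in CT against NC by 0.27 (adjusted p 0.000200). ATG16L1, part of the machinery that lipidates LC3, rose in CT against NC by 0.34 (adjusted p 0.00238), and 1 of the 3 that fell in UVA against NC is KEAP1 itself. Of all genes, 10.6% were called lower in UVA against NC and 14.2% in CT against NC, so 3 of 19 is near the background.

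**Figure D4:**
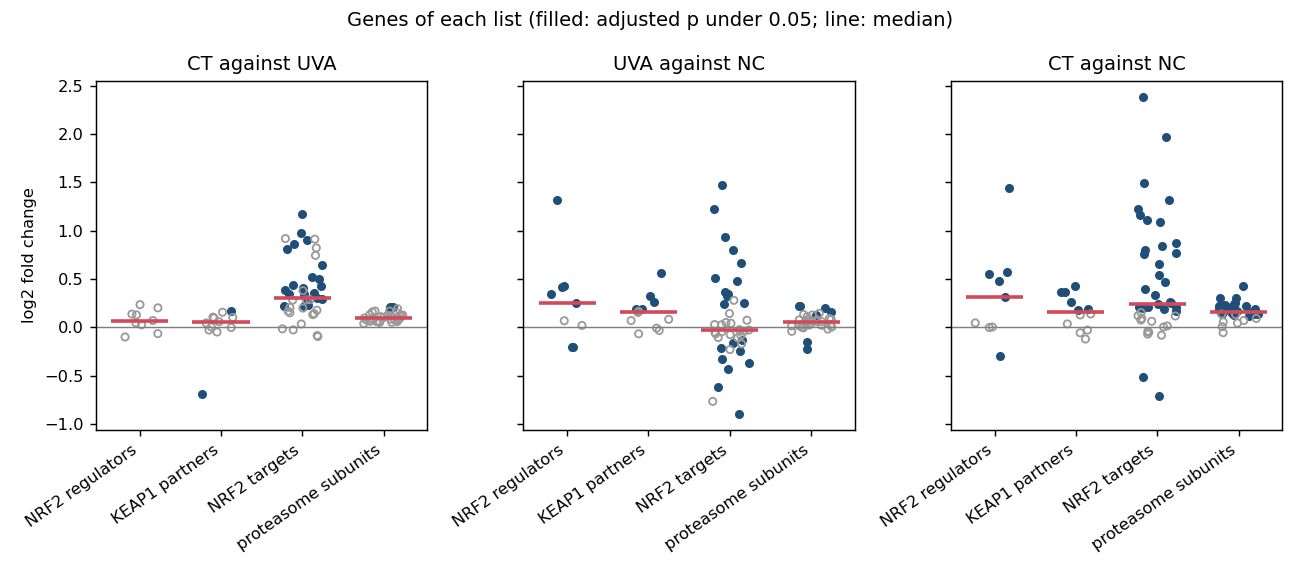
Log2 fold change (y axis) of the genes of 4 lists (x axis: the 9 NRF2 regulators, KEAP1 partners, NRF2 targets and proteasome subunits) in CT against UVA, UVA against NC and CT against NC; filled points have an adjusted p under 0.05 and the line is the median of the list. In CT against UVA the NRF2 targets have 21 filled points above 0, and the regulators have none.

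By the correlation of log2 CPM over the 9 libraries, among 11162 genes, the genes most like each regulator were named as a description. The groups carry these correlations, since libraries of a group share their treatment. MAFF was most like NFKB2 (r = 0.993), ATF3 (r = 0.992) and EMP1 (r = 0.989), and SQSTM1 most like RASSF3 (r = 0.994), TAF9 and C1orf43. MAFG was most like SMYD5 (r = 0.989), MAFK most like FOXD1 (r = 0.986) and BACH1 most like PFDN4 (r = 0.974). NFE2L1 was most like ACTR10 (r = 0.993) and DSC3 (r = 0.992), and KEAP1 most like CAMTA2 (r = 0.935), the weakest of these leading values. None of the 9 regulators was among the 3 genes most like any of these 7. No such genes were looked for with NFE2L2 and CUL3, which passed in no comparison.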

How the data were processed

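The RNA of 9 libraries, 3 each from CT, UVA and NC cells, was sequenced after capture of mRNA on oligo(dT). The table deposited by the authors holds whole-number read counts per gene, not normalized. Tools named in the submitters' notes are fastp 0.23.2 and bcl2fastq, with GRCh38 as the build. The aligner, counter, annotation and counting strand were not given in the sources used here. Library totals of 16390289 to 21971215 counts and a common biological coefficient of variation of 0.0584 set the precision.

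Genes were filtered with filterByExpr, scaled by TMM and tested on all 9 libraries with edgeR 4.0.16 (R 4.3.3, quasi-likelihood F test, robust). P-values were adjusted by Benjamini-Hochberg over 15154 genes, with a threshold of 0.05. The standard error was the absolute log2 fold change over the square root of F, and intervals are ±2 SE. The test was also run on simulated counts drawn from its own fitted spread, which cannot check that model. No result here rests on that run. Exon lengths and overlaps came from GENCODE 29, and promoters from RefSeq. The likeness of genes used log2 CPM with a prior count of 2 and a mean of at least 2.

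Members and lists were chosen with earlier results of these data known. All 9 members were named, up to 4 genes per list and comparison by smallest adjusted p, all other CNC and BACH factors, and up to 3 genes most like each called member. MRNIP and TMEM184A were named for their overlap, outside that rule. Alternatives were DESeq2 1.42.0, limma-voom (limma 3.58.1), RLE scaling, library totals only, no filter, at least 10 counts in every library, the compared groups alone, a replicate block, each library left out and a threshold of 0.01.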

Additional observations from a re-analysis of the deposited data

How the results depend on the processing

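Of the 27 results of the 9 genes, 23 kept their sign and 23 their side of the threshold under all 17 alternatives. The cause of the changes was not tested. With no filter on low counts, 1 of the 9 was higher in CT against UVA, MAFG, and 561 genes were called in that comparison against 236. At an adjusted p under 0.01, 3 of the 9 were higher and 1 lower in UVA against NC, and 100 genes were called in CT against UVA, 1728 in UVA against NC (3202 at 0.05) and 2760 in CT against NC (4517 at 0.05). Leaving out 1 library at a time gave 95 to 372 genes in CT against UVA, lowest without UVA replicate 2 and highest without CT replicate 1, and in UVA against NC it gave 3 (without NC replicate 2) to 5 of the 9 higher and 1 to 2 lower. Small differences that had not passed changed sign. In CT against UVA, with 1 library left out, MAFF ran from -0.0149 to 0.26 and SQSTM1 from -0.0217 to 0.0988, both lowest without CT replicate 3 and highest without CT replicate 1. In CT against NC, NFE2L2 was -0.0114 with library totals only and ran from -0.0211 to 0.0429 with 1 library left out (below 0 without CT replicate 1, CT replicate 3 or NC replicate 2), and KEAP1 ran from -0.0546 to 0.0443 (above 0 without CT replicate 3 or NC replicate 3). Over all tested genes, libraries with the same replicate number did not deviate together (r of residuals -0.0481 to 0.0280 over 9 pairs). The labels do not say whether such libraries shared a culture or a day, and this was not tested. With a replicate block 1 of the 9 was lower in UVA against NC, where KEAP1 had an adjusted p of 0.0528, and no other call of the 9 changed. At these depths HMOX1 and BACH2 had few counts, so their fold changes are imprecise, and NFE2 was too low to be tested.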
